A study of Mus musculus with 6 samples.

Results

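The transcription factors that drive epithelial-mesenchymal transition (EMT), and 2 marker genes of the mesenchymal state, were followed in mouse mammary tumour grafts labelled WT and AXL KO. The set was Snai1, Snai2, Snai3, Twist1, Twist2, Zeb1, Zeb2, Prrx1, Vim and Cdh2, taken by symbol from the authors' deposited table and joined by Ensembl identifier to the counts of each library. All 10 genes were found among 39179 gene identifiers, and all 10 passed the filter on low counts that left 14850 genes. The grafts were MMTV-Neu mammary tumours, in which a viral promoter active in mammary epithelium drives the Neu (ErbB2) oncogene, grown in mice of the FVB strain. There were 3 libraries of genotype WT and 3 of genotype AXL KO, and the knockout is that of the grafted cells. The graft also holds cells of the host, whose Axl genotype the labels do not give. The labels name no treatment, age or cell line. Whether replicates were separate animals or cultures is not stated, so the p-values cover the spread among these 6 libraries alone, and that spread may be technical.

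EMT is a programme in which epithelial cells loosen their junctions and take on a motile, fibroblast-like state. The SNAI zinc finger proteins and the ZEB zinc finger proteins are repressors that bind E-boxes in epithelial genes such as Cdh1, while the TWIST basic helix-loop-helix proteins and the homeodomain protein PRRX1 act with them. Vimentin (Vim) and N-cadherin (Cdh2) are classical markers of the resulting state, and the loss of E-cadherin (Cdh1) with a gain of N-cadherin is called the cadherin switch. In a tumour graft the same genes are also expressed by host fibroblasts, pericytes, endothelial cells and leukocytes, and a library of whole tissue does not separate these sources.

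The 6 libraries held 26541009 to 32491807 counts in genes. Axl itself, the targeted gene, was counted at 60.4 ± 8.95 CPM (counts scaled to a common library size; SD, n = 3) in WT and 60.1 ± 13.1 CPM (SD, n = 3) in AXL KO, so its count did not check the labels, and directions below are between libraries as labelled. The labels do not give the deleted part of the gene. Of 8 luminal epithelial markers 7 passed the filter on low counts, and Krt19 was near 0. Their summed levels were 4888 to 5221 CPM in WT and 3673 to 4063 CPM in AXL KO, while Krt5 and Krt14 of the myoepithelial list were at or near 0. The library AXL KO 2 stood apart from AXL KO 1 and 3 in 7 of the 10 genes, where its level was over 1.5 times their mean, and not in Zeb1, Twist2 and Snai3. Its summed fibroblast markers were 1.62 times the mean of the other AXL KO libraries. That sum was mostly Col1a1, Col1a2 and Col3a1, and the ratio of single fibroblast markers ranged from 1.08 (Thy1) to 2.31 (Pdpn).

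All 10 genes had a negative log2 fold change in AXL KO, and 4 of them passed the test: Snai1, Snai2, Vim and Cdh2 fell by 1.46, 0.94, 0.92 and 0.92 on the log2 scale (edgeR quasi-likelihood test, Benjamini-Hochberg adjusted over all 14850 genes). None rose. Of all tested genes 37.4% were called in either direction. Twist1, Prrx1, Zeb1, Snai3, Twist2 and Zeb2 did not pass, and their values are given below. Over all tested genes 18.3% were called lower and 19.1% higher in AXL KO. The median log2 fold change was -0.80 over the 10 genes and 0.00 over all tested genes. In 5 of the 10 genes every AXL KO library lay below every WT library, against 25.2% of all tested genes, and groups were apart in either direction for 52.1%. The count of genes called depended on single libraries. It was 8 of 10 without AXL KO 2 (background 18.8% lower and 36.9% in either direction), 2 without WT 1 (background 17.4% lower), and 1, Snai1, without AXL KO 1 (12.2%) or without AXL KO 3 (11.5%), near the background share in those fits. In bulk tissue, fewer cells that express a gene and less of its RNA per cell cannot be told apart.

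**Figure D1:**
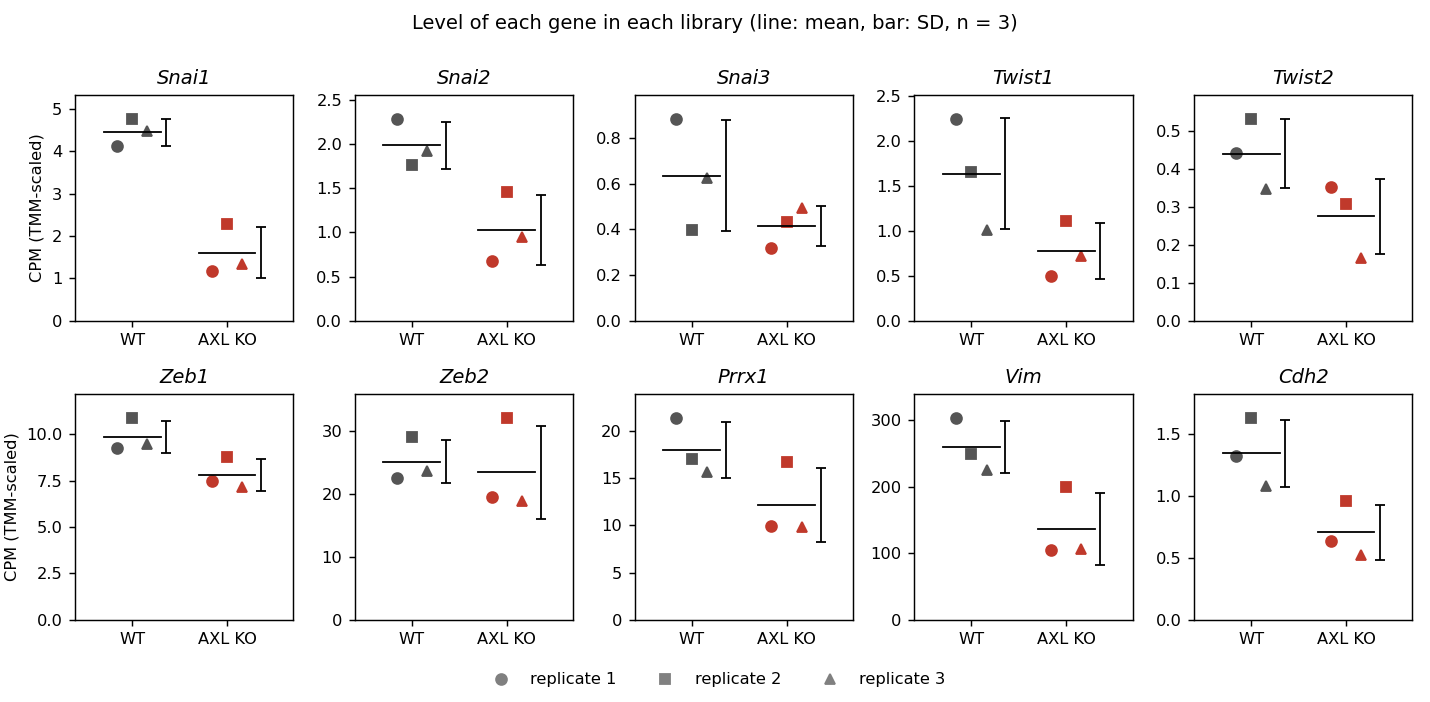
Level of each gene in CPM in each library, on linear axes that start at 0. Circles, squares and triangles are replicates 1, 2 and 3, horizontal lines are means and bars are SD (n = 3). The AXL KO points of Snai1, Snai2, Zeb1, Vim and Cdh2 all lie below the WT points, and the square of AXL KO 2 is the highest AXL KO point in 8 of 10 panels.

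**Figure D2:**
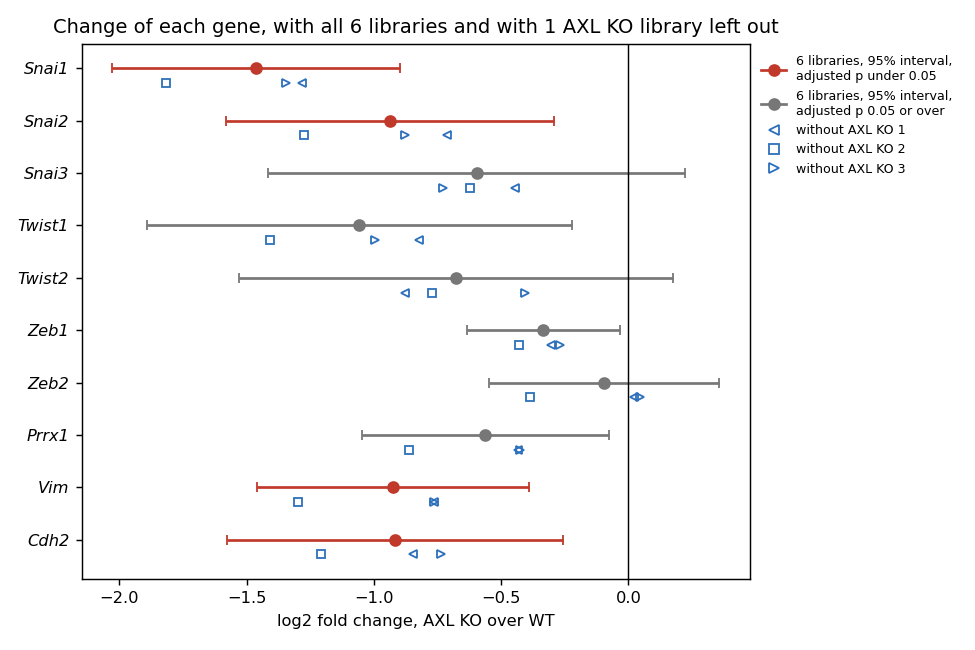
Log2 fold change of AXL KO over WT for each gene, with its 95% interval from all 6 libraries (filled circles, red where the adjusted p was under 0.05). Open symbols give the estimate with AXL KO 1, 2 or 3 left out, and the open square (without AXL KO 2) is the lowest estimate for 8 of 10 genes.

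Levels per length set the 10 genes in order, and they spanned a wide range. RPKM here is CPM per kilobase of annotated exons. Vim stood far above the rest, at 54.8 ± 8.31 RPKM (SD, n = 3) in WT. Snai1 was the highest transcription factor, at 2.74 ± 0.195 RPKM in WT, followed by Prrx1 at 1.63 ± 0.267 RPKM. Zeb2, Twist1, Snai2 and Zeb1 followed at 1.26, 1.01, 0.983 and 0.962 RPKM, and each overlapped the next in the WT libraries, as Prrx1 did with Zeb2. Snai3 (0.391 RPKM), Cdh2 (0.167 RPKM) and Twist2 (0.139 RPKM) were lowest, with Cdh2 and Twist2 overlapping. In AXL KO Prrx1 and Zeb2 lay at 1.10 ± 0.357 and 1.18 ± 0.372 RPKM, above Snai1 at 0.988 ± 0.370 RPKM, and these 3 values lay within their SD of each other.

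Snai1 encodes SNAIL, a repressor of Cdh1 (chromosome 2, 167538195 to 167542814, GRCm38). It was counted 112, 143 and 128 times in WT 1 to 3 and 33, 74 and 41 times in AXL KO 1 to 3. Its level was 4.12, 4.75 and 4.46 CPM in WT and 1.17, 2.29 and 1.35 CPM in AXL KO. The groups were apart, with AXL KO 2 the closest to WT. Snai1 fell 2.76-fold, a log2 fold change of -1.46 ± 0.25 (SE; edgeR adjusted p = 0.00231), with a 95% interval from -2.03 to -0.90. It passed in each fit that tested it and at an adjusted p under 0.01 with all 6 libraries, with log2 fold changes of -1.82 to -1.28 over the 6 fits that left out 1 library. The authors' deposited table gives -1.42 for the same contrast.

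SNAIL is known to bind an E-box in its own promoter, and E-boxes are the sites of SNAI, ZEB and TWIST proteins, so the 250 bases before the gene start of Snai1 are shown. They are from RefSeq on GRCm38.p6, plus strand, 5′ to 3′, at chr2:167537945-167538194, and capitals mark CANNTG.
Snai1: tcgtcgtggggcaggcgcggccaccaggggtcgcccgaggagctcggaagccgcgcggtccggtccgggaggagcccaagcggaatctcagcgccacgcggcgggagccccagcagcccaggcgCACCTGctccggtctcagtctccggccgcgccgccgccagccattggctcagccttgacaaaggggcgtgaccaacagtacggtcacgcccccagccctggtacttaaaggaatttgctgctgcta
CAGGTG, the core that SNAI and ZEB proteins prefer, was searched on both strands and so also as CACCTG, and each match is also a match to CANNTG. The Snai1 window held 1 match, a CACCTG that starts 126 bases before the gene start. No match to CANNTG stood in the windows before the RefSeq starts of Vim, Twist1, Twist2 and Prrx1, or in the 4 windows of Zeb2. Windows of Snai2, Snai3, Zeb1 and Cdh2 were not searched. RefSeq and GENCODE starts differ for some of these genes: the window of Vim and 3 of those of Zeb2 lay wholly inside the GENCODE gene, and 60 bases of that of Prrx1 did. Of 32817 windows of the same length in RefSeq, 17.2% held CAGGTG or CACCTG and 66.2% held CANNTG. These matches describe the letters and were not tied to binding or to the change in level.

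Snai2 encodes SLUG, the second repressor of the family (chromosome 16, 14705852 to 14709385). Its level was 2.28, 1.76 and 1.92 CPM in WT and 0.673, 1.45 and 0.953 CPM in AXL KO, from 19 to 62 counts. The groups did not overlap, but AXL KO 2 lay close to WT 2. Snai2 fell 1.92-fold (log2 fold change -0.94 ± 0.28, edgeR adjusted p = 0.0297). The call was lost without WT 1, WT 3, AXL KO 1 or AXL KO 3 (adjusted p = 0.0756, 0.0719, 0.0958 and 0.0924), and the estimates of all 6 such fits ran from -1.28 to -0.71. Snai3, the least studied member of the family (chromosome 8, 122454208 to 122460733), had 24, 12 and 18 counts in WT and 9, 14 and 15 in AXL KO. These ranges overlap, and the interval of the difference spans 0 (log2 fold change -0.60 with a 95% interval from -1.42 to 0.22, edgeR adjusted p = 0.223).

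Twist1, which directs mesoderm and neural crest development (chromosome 12, 33957671 to 33959829), lay just outside the threshold. Its level was 2.25, 1.66 and 1.01 CPM in WT and 0.496, 1.11 and 0.723 CPM in AXL KO. WT 3 lay below AXL KO 2, so the groups overlapped. Its estimate was -1.06 ± 0.37 on the log2 scale (95% interval -1.89 to -0.22), and the edgeR adjusted p was 0.0502. The adjusted p was 0.0482 with DESeq2 size factors and 0.0449 with DESeq2, but 0.0568 with limma-voom. It was 0.0310 without WT 3 and 0.0222 without AXL KO 2, and 0.101 to 0.152 without any other library, where the estimate ran from -1.05 to -0.77. Medians of the log2 fold change per chromosome ran from -0.29 (chromosome 15) to 0.28 (chromosome 4). Chromosome 12 had a median log2 fold change of -0.22 over its 514 tested genes, and with each chromosome's median removed Twist1 lay at -0.84 (adjusted p = 0.118). Twist2, a close relative also made in dermal fibroblasts (chromosome 1, 91801461 to 91848028), had 12, 16 and 10 counts in WT and 10, 10 and 5 in AXL KO. Its log2 fold change of -0.68 had a 95% interval from -1.53 to 0.18 (edgeR adjusted p = 0.187).

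Zeb1 and Zeb2 encode paired zinc finger repressors that form a feedback loop with the miR-200 family, and they were the members whose estimates lay nearest to 0. Zeb1 (chromosome 18, 5591860 to 5775467) was at 9.28, 10.9 and 9.49 CPM in WT and 7.51, 8.81 and 7.16 CPM in AXL KO. Every AXL KO library lay below every WT library, by a small step. Its log2 fold change of -0.34 ± 0.13 had an edgeR adjusted p of 0.0760, and the 95% interval, from -0.64 to -0.03, did not reach a 2-fold change. Zeb2 (chromosome 2, 44983632 to 45117395) was at 22.6, 29.0 and 23.7 CPM in WT and 19.5, 32.0 and 18.9 CPM in AXL KO. AXL KO 2 was the highest of all 6 libraries, and the other AXL KO libraries were the lowest. The log2 fold change was -0.10 ± 0.20 (95% interval -0.55 to 0.36, edgeR adjusted p = 0.737). It was -0.39 without AXL KO 2 (adjusted p = 0.0431) and 0.024, 0.023 and 0.045 without WT 2, AXL KO 1 and AXL KO 3, so its direction was not fixed by these data. Without AXL KO 2, Zeb1 also passed, at -0.43 (adjusted p = 0.0401). Exons of Zeb2 and of the antisense gene Zeb2os share 653 bases, and those of Zeb1 and Gm10125 share 198 bases. The use of strand in counting is not given in the sources used here, so reads of these partners cannot be told apart. Zeb2os had 245 counts over the 6 libraries and Gm10125 had 41.

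Prrx1, a homeobox gene of limb and connective tissue mesenchyme (chromosome 1, 163245119 to 163313710), had AXL KO libraries that were split in level. Its level was 21.3, 17.1 and 15.7 CPM in WT. In AXL KO it was 9.92, 16.7 and 9.89 CPM, so that AXL KO 2 lay inside the WT range while AXL KO 1 and 3 lay well below it. With all libraries the log2 fold change was -0.56 ± 0.21 (edgeR adjusted p = 0.0676). Without AXL KO 2 it was -0.86 (adjusted p = 0.00284). DESeq2 gave -0.57 with an adjusted p of 0.0243, and the edgeR fit with no filter gave -0.55 with an adjusted p of 0.0439. Limma-voom gave an adjusted p of 0.0504. Without WT 1, AXL KO 1 or AXL KO 3 the estimate was -0.42, -0.43 and -0.43 (edgeR adjusted p = 0.173, 0.200 and 0.206).

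Vim, the intermediate filament protein of mesenchymal cells (chromosome 2, 13573927 to 13582826), was the most deeply counted member, with 2966 to 8234 counts. Its level was 303, 250.2 and 226 CPM in WT and 105, 199.3 and 106 CPM in AXL KO. AXL KO 1 and 3 were nearly equal, and AXL KO 2 lay between them and WT. Vim fell 1.90-fold (log2 fold change -0.92 ± 0.24, edgeR adjusted p = 0.0147), with a 95% interval from -1.46 to -0.39. The adjusted p was 0.0524 without AXL KO 1, 0.0521 without AXL KO 3 and 0.000143 without AXL KO 2, where the log2 fold change was -1.30.

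Cdh2, which encodes N-cadherin (chromosome 18, 16588877 to 16809246), was counted 36, 49 and 31 times in WT and 18, 31 and 16 times in AXL KO. Its level was 1.33, 1.63 and 1.08 CPM in WT and 0.638, 0.958 and 0.526 CPM in AXL KO. The groups did not overlap, but the counts were few. Cdh2 fell 1.89-fold (log2 fold change -0.92 ± 0.29, edgeR adjusted p = 0.0355). It was not called by DESeq2 (adjusted p = 0.0695), nor without WT 1, WT 2, AXL KO 1 or AXL KO 3 (edgeR adjusted p = 0.0625, 0.109, 0.110 and 0.123), where the log2 fold change ran from -0.93 to -0.74. Cdh1, its epithelial counterpart, was at 267 ± 7.33 CPM in WT and 293 ± 9.16 CPM in AXL KO (SD, n = 3; log2 fold change 0.13 ± 0.07, edgeR adjusted p = 0.148). Per length, Cdh1 stood at 58.5 RPKM and Cdh2 at 0.167 RPKM in WT.

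Of the 10 genes, 5 were lower in AXL KO in the authors' deposited table at an adjusted p under 0.05, against 16.7% of the genes with an adjusted p there. These were Snai1, Prrx1, Vim, Snai2 and Twist1, with log2 fold changes in the authors' deposited table of -1.42, -0.56, -0.88, -0.89 and -0.98 when turned to AXL KO over WT. Cdh2 was at -0.86 in the authors' deposited table, with an adjusted p of 0.0657. Twist1 and Prrx1 therefore passed there and not in edgeR, and Cdh2 passed in edgeR and not there.

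AXL KO 2 was the highest of the 3 AXL KO libraries for 8 of the 10 genes, against 37.2% of all tested genes. Its level was more than 1.5 times the mean of AXL KO 1 and 3 for 7 of the 10, against 6.94% of all tested genes. The ratio was 1.89 for Vim, 1.83 for Twist1, 1.82 for Snai1, 1.79 for Snai2, 1.69 for Prrx1, 1.67 for Zeb2 and 1.65 for Cdh2. It was 1.20 for Zeb1, 1.19 for Twist2 and 1.07 for Snai3. The distance of AXL KO 2 from WT differed among the genes. Relative to the WT mean, AXL KO 2 stood at 0.514 for Snai1, 0.767 for Vim, 0.929 for Prrx1 and 1.28 for Zeb2.

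Not all cell type markers followed AXL KO 2 as most of the 10 genes did. Summed levels in AXL KO 2 were 1.62 times the mean of AXL KO 1 and 3 for fibroblast markers. That ratio was 1.20 for pericyte and smooth muscle, 1.26 for endothelial, 1.25 for macrophage and 0.85 for T and NK cell markers. Single pericyte and smooth muscle markers ranged from 0.73 (Abcc9) to 2.60 (Des). Notch3, the highest of them in level, was at 0.91, while Rgs5 was at 1.62 and Acta2 at 2.21. The myoepithelial sum, which shares Acta2 and Myh11 with that list, was at 2.12, so the ratio was not high in fibroblast markers alone. Counts called are to be read beside 18.3% of all tested genes lower and 19.1% higher. All 12 fibroblast markers were detected and tested, none passed, and their median log2 fold change was -0.48. Without AXL KO 2, 4 of them fell, against 18.8% of all tested genes, and the median was -0.75. Their summed level was 1730 to 2960 CPM in WT. In AXL KO it was 1360, 2182 and 1336 CPM, so that AXL KO 2 lay inside the WT range, as Prrx1 did. Of 10 pericyte and smooth muscle markers 8 fell (median -0.87), with summed levels of 636 to 724 CPM in WT and 387 to 476 CPM in AXL KO. Abcc9 of that list went the other way, at 0.60 on the log2 scale (edgeR adjusted p = 0.0513). Of 10 endothelial markers 9 fell (median -0.68), with sums of 328 to 369 CPM in WT and 191 to 255 CPM in AXL KO. Of 11 macrophage markers 1 rose and 1 fell, and of 12 T and NK cell markers 11 rose, from sums of 9.83 to 13.7 CPM to sums of 35.3 to 42.6 CPM. None of the markers on these 5 lists was at 0. The part of these cells in the fall of Snai1, Snai2, Vim and Cdh2 was not tested. Skeletal muscle markers were near absent, with sums of 2.79 to 7.73 CPM and Myod1 at 0, and none of the 6 adipocyte markers passed. Sox10, a neural crest and Schwann cell factor, was at 563 ± 31.7 CPM in WT and 603 ± 57.0 CPM in AXL KO. Of the 4 tested genes of its list only S100b was called, 3.56-fold lower in AXL KO.

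**Figure D3:**
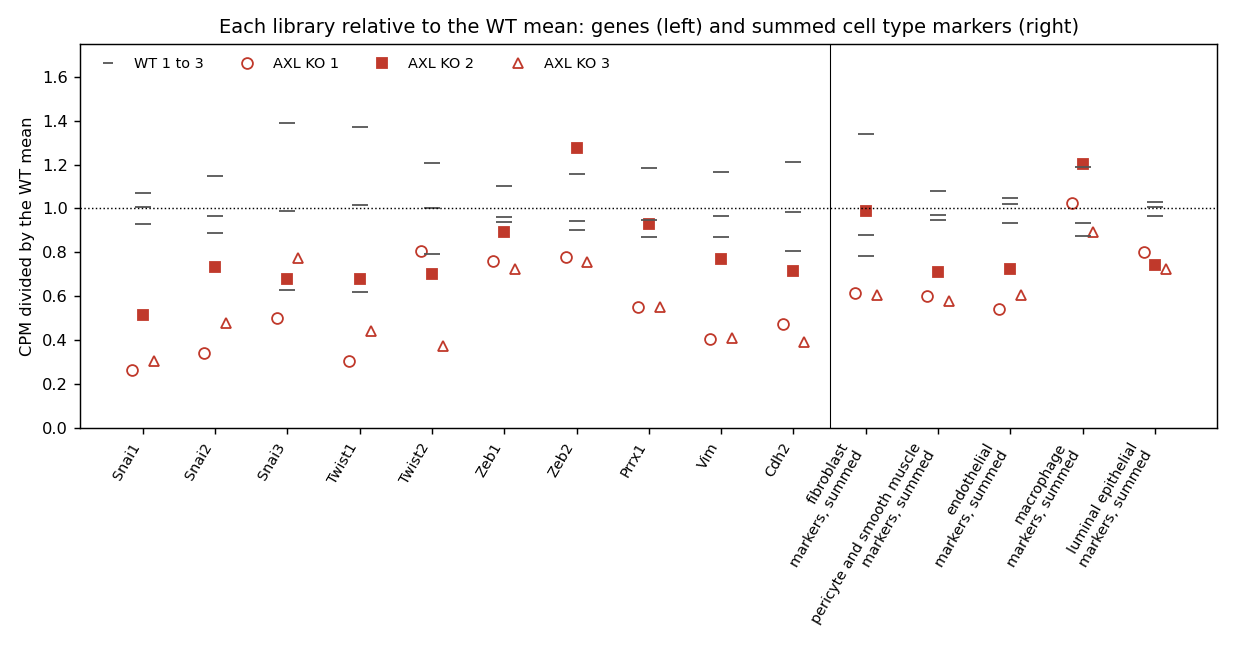
Level in each library divided by the WT mean, for the 10 genes (left of the line) and for the summed markers of 5 cell types (right). Dashes are the WT libraries and red symbols the AXL KO libraries, with AXL KO 2 as filled squares, which stand at 0.514 for Snai1, 0.929 for Prrx1 and 0.987 for the fibroblast markers.

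The genes that surround these factors in the EMT programme were read from 8 lists of 136 genes, of which 111 were tested. Of those 15 were higher and 34 lower in AXL KO, beside the 19.1% and 18.3% of all tested genes against which each list's counts are to be read. Genes of each list are named as the 4 with the highest mean level, and a gene named outside that rule was picked after its values were seen.

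Mesenchymal targets were called lower at a share not far from that of all genes. Of 24 tested genes 6 fell (Sparc, Mmp14, Tnc, Itga5, Itgav and Tagln) and 2 rose (Tgfbi and Cd44), and the median of the list was -0.54 on the log2 scale. Sparc, a matrix glycoprotein, fell from 617 ± 56.5 to 366 ± 109 CPM (SD, n = 3; log2 fold change -0.76 ± 0.18, edgeR adjusted p = 0.0112). The fibrillar collagen genes Col3a1, Col1a2 and Col1a1 lay at -0.40, -0.50 and -0.45, with adjusted p-values of 0.209, 0.141 and 0.186. They, Fap and Thy1 are also among the fibroblast markers above, so the lists are not independent. Mmp14, a membrane protease picked after its values were seen, fell 3.04-fold. As many as 18 of the 24 fell without AXL KO 2 (18.8% of all tested genes), where Col1a1 and Col1a2 lay at -0.81 and -0.85. Only 3 fell without WT 1 (17.4% of all tested genes), without AXL KO 1 (12.2%) and without AXL KO 3 (11.5%). Those counts of 3 were near or below the share of all genes in each fit.

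Epithelial genes that EMT factors repress went both ways, and more were lower than higher. Of 23 tested genes 9 fell and 4 rose, and the list's median was -0.20 on the log2 scale. Epcam, an epithelial adhesion molecule, fell from 1998 ± 48.7 to 1388 ± 44.8 CPM, or 1.44-fold (edgeR adjusted p = 0.000659). The keratins Krt18 and Krt8 fell 1.52- and 1.36-fold, and the tight junction gene Cldn3 fell 1.20-fold. Cldn3 lost its call without WT 1, WT 3, AXL KO 2 or AXL KO 3. The 4 that rose were the junction and polarity genes Ocln, Marveld2 and Inadl and the protease gene St14, by 0.23 to 0.49 on the log2 scale. With each chromosome's median removed 0 of the list were called higher and 7 lower, and Krt18 and Krt8 were at -0.31 and -0.15 with adjusted p-values of 0.0571 and 0.197. Of 10 tested regulators that hold the epithelial state 1 rose and 2 fell. Esrp1, a splicing factor of epithelial cells, rose from 190 ± 11.7 to 279 ± 11.6 CPM (edgeR adjusted p = 0.000746), and Ovol1 and Elf3 fell 1.55- and 1.46-fold. Elf5, Grhl1 and Gata3 lay at 0.02, 0.21 and 0.15 on the log2 scale and did not pass.

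Other transcription factors linked to EMT were as often higher as lower. Of 13 tested genes 3 rose (Tbx3, Klf8 and Tcf12) and 3 fell (Foxc1, Foxc2 and Tcf3), and the list's median was 0.13 on the log2 scale. The 4 with the highest levels were Sox4, Sox9, Tcf12 and Tcf4, at log2 fold changes of 0.04, 0.25, 0.39 and 0.22, of which Tcf12 passed (edgeR adjusted p = 0.00984). Tcf12 did not pass with chromosome medians removed (0.19, adjusted p = 0.143), and Sox4 was then at -0.10. Tbx3, a T-box repressor of mammary development picked after its values were seen, rose 15.5-fold, from 1.14 ± 0.131 to 17.8 ± 1.60 CPM (edgeR adjusted p = 1.79e-06). Foxc2, a forkhead factor, fell 2.20-fold, from 0.847 to 0.381 CPM. The count of lower genes was 0 without WT 3, where 1966 of all tested genes were lower, and 1 without any single AXL KO library. Of all tested genes 12.2%, 18.8% and 11.5% were lower without AXL KO 1, 2 and 3.

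Genes whose products work with SNAI and ZEB proteins, or set their stability, were called about as often as all genes (37.4%). Of 15 tested, 3 rose and 3 fell, around a list median of 0.04 on the log2 scale. Those at the highest levels, the deubiquitinase gene Usp9x, the corepressor genes Ctbp1 and Rcor1 and the kinase gene Gsk3b, lay at 0.17, -0.09, -0.26 and 0.08 and did not pass. The demethylase gene Kdm1a, the corepressor gene Sin3a and the Polycomb gene Suz12 rose 1.53-, 1.25- and 1.31-fold. Prkd1, Pak1 and the deacetylase gene Hdac2 fell 7.13-, 1.82- and 1.23-fold, and PRKD1 and PAK1 are kinases that phosphorylate SNAIL. Prkd1 was at 4.08 ± 0.822 CPM in WT and 0.568 ± 0.174 CPM in AXL KO (edgeR adjusted p = 0.000123). With chromosome medians removed 1 of the list was called higher.

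TGF-beta is the best known inducer of SNAI and ZEB genes. Of 17 tested genes of its ligands, receptors, Smads and binding proteins 6 fell (Tgfb1, Tgfbr3, Smad7, Ltbp1, Ltbp4 and Eng) and 1 rose, the inhibitor gene Ski, around a list median of -0.03 on the log2 scale. Ski was not called with chromosome medians removed. The 4 with the highest levels, Ltbp2, Tgfb3, Ltbp3 and Tgfbr2, did not pass, at 0.35, -0.03, -0.08 and 0.12. Ltbp1, which stores latent TGF-beta in the matrix, fell 2.15-fold, and the feedback inhibitor Smad7 fell 1.65-fold. Tgfb1 fell 1.58-fold. It lies on the chromosome of Axl, and whether that bears on its level was not tested.

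The relatives of the marker genes differed among themselves. Of 20 other cadherin genes 7 could be tested, of which 2 fell and 1 rose. Cdh5, the cadherin of endothelial cells, fell from 68.9 ± 7.02 to 44.7 ± 8.46 CPM (edgeR adjusted p = 0.00735), and Cdh13, also found on vessels, fell 2.04-fold. Cdh19 rose 1.85-fold, from 63.1 ± 3.50 to 117 ± 4.02 CPM (adjusted p = 6.77e-05). Cdh11, the cadherin of fibroblasts, lay at -0.80 ± 0.31 (edgeR adjusted p = 0.0670), and without AXL KO 2 at -1.24 (edgeR adjusted p = 0.00346). Without AXL KO 2, 4 of the list fell, beside 18.8% of all tested genes. Of the other type III and IV intermediate filament genes, the class of Vim and its kin, 4 of 10 were tested and 3 fell. Nes (nestin) fell from 777 ± 91.7 to 410 ± 71.9 CPM, and Synm (synemin) fell from 50.5 ± 9.84 to 17.7 ± 2.50 CPM, with adjusted p-values of 0.00125 and 0.000174. Des, the filament of muscle cells and pericytes, fell 2.15-fold but lost its call without any 1 library other than AXL KO 2.

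**Figure D4:**
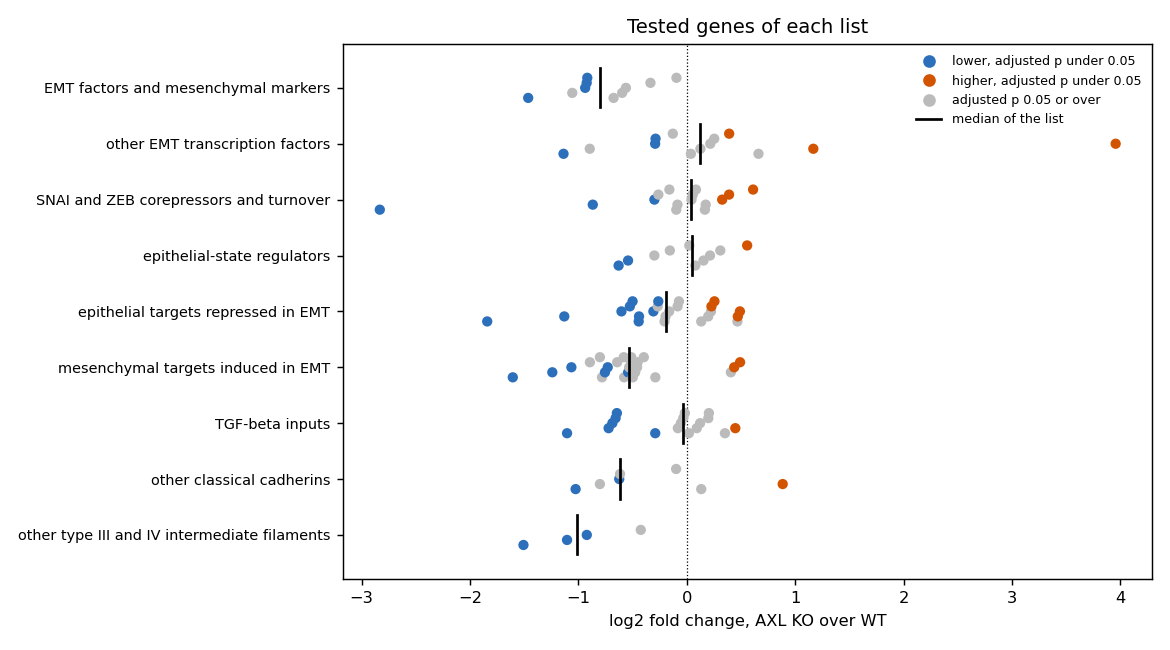
Log2 fold change of AXL KO over WT for each tested gene of the 10 factors and markers (top row) and of the 8 lists around them. Blue points were lower and orange points higher at an adjusted p under 0.05, grey points did not pass, and black lines are medians, which run from -1.01 for the intermediate filament genes to 0.13 for the other transcription factors.

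Likeness of profile was measured as the root mean square difference of log2 CPM over the 6 libraries, each gene centred on its own mean, against the 11471 genes whose mean log2 CPM reached 2. The profile nearest to Snai1 was that of the collagen gene Col11a1, at a difference of 0.07, followed by Bace2 (0.10) and Fth1 (0.11). Col11a1 was at 748, 882 and 904 CPM in WT and 239, 413 and 272 CPM in AXL KO, the same order of AXL KO libraries as Snai1. Vim was nearest to Myl9 (0.06), Mrc2 and Bgn (both 0.08), and Prrx1 to Olfml3, Plat (0.05 and 0.06) and Mfap4 (0.06). Snai2 was nearest to the endothelial gene Emcn (0.10), Twist1 to Nbl1 (0.14), Cdh2 to Eif5a2 (0.11), Zeb1 to Qk (0.03) and Zeb2 to Abcc5 (0.08). Snai3 and Twist2, at the lowest counts, were nearest to Aplnr (0.17) and Socs3 (0.09). Among the 10 genes themselves the closest pair was Snai2 and Vim (0.16), then Zeb1 and Zeb2 (0.19) and Prrx1 and Vim (0.20), and the farthest was Snai1 and Zeb2 (0.69). The measure was not scaled to the spread of each gene, so genes that vary little can lie close without a like shape. At AXL KO 2 the centred log2 CPM was 0.007 for Zeb1, below its WT libraries, and 0.42 for Zeb2, above its WT libraries.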

How the data were processed

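RNA-seq of 6 mouse tumour grafts was used, 3 WT and 3 AXL KO, each grouped by its sample title. Alignment and counting tools were CASAVA 1.8, TopHat2 2.0.10 and HTSeq 0.5.3 with GRCm38, per the submitters' processing notes, and the use of strand is not given in the sources used here. The authors deposited raw counts per gene and library, with 5 rows that name no gene. Those rows, left out, held non-unique alignments (25.7% to 29.0% of all lines), alignments in no gene (4.41% to 6.88%) and ambiguous ones (0.717% to 1.09%). A second deposited file holds the authors' DESeq2 1.4.5 comparison, with a signal per library (count over a size factor), log2 fold changes and standard errors, a score (the fold change over its error) and p-values. It gave gene symbols, and its fold changes were turned to AXL KO over WT.

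Counts were filtered with filterByExpr (minimum count 10, total 15), scaled by TMM (factors 0.980 to 1.02) and tested with edgeR 4.0.16 (R 4.3.3; quasi-likelihood, group as the only term, 4 residual degrees of freedom), with Benjamini-Hochberg adjustment over 14850 genes and a threshold of 0.05. An exact permutation test of 3 against 3 libraries cannot reach that threshold. Each standard error was the estimate divided by the root of its F. Levels were given as CPM, or as RPKM over merged exons of GENCODE M21. Within groups, libraries were further apart than counting noise allows (chi-square per gene 11.1 to 29.6), and each counted as a replicate. The steps were tested on simulated data. The alternatives changed the scaling (size factors of DESeq2, upper quartile), the tool (DESeq2 1.42.0, limma-voom 3.58.1), the filter (none, or 2 as the lowest mean log2 CPM) and the threshold (0.01). Others added a replicate block, removed each chromosome's median, or left out 1 library.

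The 10 genes and the lists were chosen with earlier results of these data known. Named genes were the 10, Axl, Cdh1, the 4 tested genes of highest mean level in each list and the highest in each cell type list. Promoters were taken from RefSeq for 6 of the 10 genes. Genes on chromosome 18 (Zeb1 and Cdh2) were left out of the search, and no window of Snai2 or Snai3 was used.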

Additional observations from a re-analysis of the deposited data

How the results depend on the processing

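Over the alternatives the number of the 10 genes called higher stayed at 0, and the number called lower ran from 1 to 8 over the 6 fits that left out 1 library. It was 1 at an adjusted p under 0.01 (Snai1), 1 when a mean log2 CPM of 2 was required, which left 4 of the 10 to test, and 3 with the replicate block, where Snai2 had an adjusted p of 0.0588. Over all genes 2717 were lower and 2835 higher, against 1464 and 1610 at an adjusted p under 0.01, and leaving out 1 library gave 1733 to 2828 lower and 2000 to 2846 higher. Of the list genes 34 were lower and 15 higher, against 21 lower at an adjusted p under 0.01 and 7 higher with chromosome medians removed, and leaving out 1 library gave 23 to 42 lower and 10 to 17 higher.

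Signs that turned belonged to genes that did not pass with all 6 libraries. Leaving out 1 library gave a range of -0.39 to 0.045 for Zeb2, -0.18 to 0.13 for Axl, -0.022 to 0.074 for Elf5 and -0.090 to 0.0079 for Tgfb3 (log2). Axl turned to 0.0017 without a filter and 0.011 with chromosome medians removed. That removal also turned Sox4, Tgfb3 and Tgfbr2, to -0.10, 0.18 and -0.077. The cause was not tested.

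The labels do not say whether replicate numbers pair the libraries. Deviations from the group means correlated at -0.06, -0.13 and 0.09 between libraries numbered 1, 2 and 3. Between libraries of unlike number the values ran from -0.21 to 0.22. Deviations of 3 libraries sum to 0 in each group, so these values cannot decide on a pairing. The replicate block gave 2373 lower and 2458 higher genes and changed no other call among the 10. Snai3 and Twist2 had 5 to 24 counts a library. Whether depth set their missing calls was not tested.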

Other observations

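Levels were also set against the summed fibroblast markers of the same library, a reading chosen after the values were seen and given without a test. Most of that sum was Col1a1, Col1a2 and Col3a1. Per 1000 CPM of fibroblast markers, Snai1 was at 1.39, 2.45 and 2.58 CPM in WT and 0.859, 1.05 and 1.01 CPM in AXL KO. Vim was at 102, 129 and 131 CPM in WT and 77.2, 91.4 and 79.5 CPM in AXL KO. In Snai1, Snai2, Twist1 and Vim, 4 of the 10 genes, every AXL KO library lay below every WT library on this scale, against 4.29% of all tested genes. The sum was lower in AXL KO 1 and 3 than in any WT library, and dividing by it raises every gene there. Prrx1 was at 7.21, 8.80 and 9.05 CPM in WT and 7.29, 7.68 and 7.40 CPM in AXL KO, so its groups overlapped. WT 1, which had the highest sum of fibroblast markers, was the lowest WT library for Snai1, Vim and Prrx1 on this scale.

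Set against the summed pericyte and smooth muscle markers in the same way, 1 of the 10 genes, Snai1, had every AXL KO library below every WT library, with 6.34, 6.57 and 7.03 CPM in WT and 2.90, 4.80 and 3.48 CPM in AXL KO per 1000 CPM of markers. The same held for 1 of the 10, Snai1, against the endothelial markers. The shares of all tested genes were 3.94% and 3.76%.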
